A study of Mus musculus with 6 samples.

Results

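The mitochondrially encoded transcripts are the RNAs made from the circular DNA inside mitochondria. They were taken as the genes of the table whose symbol starts with mt-, which gave 37 of 40568 genes after removal of repeated entries. They comprise 13 protein-coding genes, 2 ribosomal RNA (rRNA) genes and 22 transfer RNA (tRNA) genes. No measured value entered this choice.

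The RNA came from the cerebellum of C57BL/6 mouse pups aged 6 days and was sequenced in 6 libraries. Of these, 3 were wild type and 3 came from pups with a conditional knockout of SnoN (SnoN cKO), the product of Skil, a transcriptional regulator that binds Smad proteins. The sources used here name neither the promoter that drives the knockout nor the cells it reaches. Total RNA was made into single-end libraries with a kit that does not keep the strand of a read. The sources also do not say whether RNAs with a poly(A) tail were selected or rRNA was removed. The labels give each library a code and a sex of its own but do not state that it came from 1 animal, so p-values measure the spread between these libraries.

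Mitochondrial DNA is copied and transcribed inside the organelle by its own polymerases, with the factor TFAM packaging the DNA and helping transcription to start. Both strands are read as long transcripts, and these are cut mainly at the tRNAs that punctuate them into mRNAs, rRNAs and tRNAs. The mRNAs encode core subunits of respiratory complexes I, III and IV and of ATP synthase (complex V), while the other subunits, and the proteins that copy, transcribe and translate mitochondrial DNA, are encoded in the nucleus. Pieces of mitochondrial DNA also lie in the nuclear chromosomes as inherited copies, and a read from such a stretch can match both places.

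Libraries held between 12605870 and 17757711 counts on genes. Skil, the targeted gene, was at 89.5, 87.5 and 88.9 CPM (counts scaled to a common library total by the TMM method) in wild type 1, 2 and 3, against 76.0, 74.7 and 77.5 CPM in SnoN cKO 1, 2 and 3. Each SnoN cKO library was below each wild type library, with a log2 fold change of -0.22 (SE 0.04; edgeR adjusted p = 0.637, unadjusted p = 0.000379). All 9 granule lineage markers and all 6 Purkinje cell markers had counts, with summed levels from 2926 to 3404 CPM and from 1563 to 1834 CPM across libraries. Muscle, rich in mitochondria, was near absent, with a summed level of 6 skeletal muscle markers of at most 3.43 CPM. In 2 libraries the sex read from the RNA went against the label: SnoN cKO 1, labelled female, had 35 Xist counts and 3421 Y-linked counts, and SnoN cKO 2, labelled male, had 37467 and 5. With sex taken from the RNA as a covariate, 0 mitochondrially encoded genes passed the adjusted threshold, and 0 did with the labelled sex.

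Of the 37 genes, 23 had at least 1 count and 14 were listed at 0 in all 6 libraries. The rRNA genes mt-Rnr1 and mt-Rnr2 both had counts, as did 14 of the 22 tRNA genes and 7 of the 13 protein-coding genes. The protein-coding genes with counts were mt-Nd1, mt-Nd2, mt-Nd4, mt-Nd5 and mt-Nd6 of complex I, mt-Cytb of complex III and mt-Co1 of complex IV. Those listed at 0 were mt-Co2 and mt-Co3, which with mt-Co1 form the catalytic core of cytochrome c oxidase, the ATP synthase subunits mt-Atp6 and mt-Atp8, and the complex I subunits mt-Nd3 and mt-Nd4l. A count of 0 allows at most 3 counts, or between 0.176 and 0.235 CPM depending on the library, which covers counting error only. The mean level of the detected protein-coding genes was at least 642.6 CPM, and mt-Co1, mt-Co2 and mt-Co3 lie on the same strand.

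Apart from the tRNA genes mt-Tw, mt-Ty and mt-Th, the genes at 0 form an unbroken run on the molecule, from mt-Ts1 to mt-Nd4l. Nearly all of the sequence of 5 protein-coding genes in this run occurs a second time in the nuclear genome. Sequences of 3 of them are shown because they show how close the copies are. They come from the GENCODE M21 transcripts (GRCm38), each with the nuclear gene that carries its copy on chromosome 1. Capitals mark bases that differ between a gene and its copy. The first 60 bases of mt-Co2 and mt-Atp6 are the same letters as the first 60 of Gm28661 and Gm10925, and mt-Nd3 differs from Gm28438 by T3C, counted from the gene's first base.
mt-Co2: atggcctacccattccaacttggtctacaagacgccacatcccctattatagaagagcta
Gm28661: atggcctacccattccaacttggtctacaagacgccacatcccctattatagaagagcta
mt-Atp6: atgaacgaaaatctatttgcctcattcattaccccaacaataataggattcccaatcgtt
Gm10925: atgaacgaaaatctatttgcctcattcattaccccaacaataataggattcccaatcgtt
mt-Nd3: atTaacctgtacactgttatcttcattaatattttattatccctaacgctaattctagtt
Gm28438: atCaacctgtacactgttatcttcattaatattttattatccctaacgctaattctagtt

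The copy begins inside mt-Co1, a gene that did have counts. Bases 1054 to 1113 of mt-Co1 and the first 60 of Gm29216 are shown because the 6 differing bases of the 492 aligned lie here: T1056A, C1057T, A1059G, A1060G, C1062A and A1066T. From there to its end, mt-Co1 and the nuclear gene carry the same letters.
mt-Co1: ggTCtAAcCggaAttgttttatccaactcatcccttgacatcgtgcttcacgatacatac
Gm29216: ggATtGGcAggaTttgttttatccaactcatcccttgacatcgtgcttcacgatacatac

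Over their aligned lengths, Gm28661 matched 681 bases of mt-Co2, Gm10925 matched 678 bases of mt-Atp6, Gm28437 matched 783 bases of mt-Co3 and Gm10222 matched 294 bases of mt-Nd4l, each with 0 mismatches. Gm28438 matched mt-Nd3 over 345 bases with 1 mismatch, and Gm28439 matched the first 876 bases of mt-Nd4 with 0. These 7 nuclear genes lie on the same strand of chromosome 1 within 4663 bases, in the order of their mitochondrial counterparts. The spaces between them are nearly those of the mitochondrial molecule. The space between mt-Co1 and mt-Co2 is 140 bases in both, and that between mt-Co2 and mt-Atp6 is 230 bases in mitochondria and 233 on chromosome 1. The space between mt-Co3 and mt-Nd3 is 68 against 69 bases, and that between mt-Nd3 and mt-Nd4l 70 against 74. The letters of these spaces were not compared, since only annotated transcripts were used.

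To set this against the counts, each gene was divided into all windows of 50 bases, and the windows found letter for letter in another annotated transcript on either strand were counted. The share was 100% for mt-Co2 (635 of 635 windows), 99.9% for mt-Co3 (734 of 735), 99.5% for mt-Atp6 (629 of 632), 98.8% for mt-Nd4l (245 of 248) and 98.0% for mt-Nd3 (293 of 299). These 5 genes were at 0 in every library. The share was 62.2% for mt-Nd4 (827 of 1329) and 51.1% for mt-Co1 (765 of 1496), which had counts. It was 8.19% for mt-Nd2, 7.61% for mt-Nd5 and 1.04% for mt-Rnr2, and 0 for mt-Nd1, mt-Nd6, mt-Cytb and mt-Rnr1. With windows of 36 or 100 bases, the same 5 genes were at 97.6% or above and no other gene was above 62.6%.

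Among the protein-coding genes, mt-Atp8 was the exception, at 0 counts with 0 of 155 windows shared with an annotated transcript. It follows mt-Tk in the space between mt-Co2 and mt-Atp6, and its end overlaps the start of mt-Atp6. That space is 230 bases, whereas mt-Tk has 65 bases and mt-Atp8 has 204. With windows of 36 bases, 8 of the 169 windows of mt-Atp8 were shared. Of the 8 tRNA genes at 0, mt-Ts1, mt-Td, mt-Tk, mt-Tg and mt-Tr lie in the spaces between the copied genes. The other three, mt-Tw, mt-Ty and mt-Th, lie outside that stretch. The treatment of reads that match several places is not given in the sources used here. Its part in the zeros was not tested.

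The nuclear copies themselves had few counts. Gm28438, the copy of mt-Nd3, had 40, 65 and 45 counts in wild type 1, 2 and 3, against 52, 59 and 53 in SnoN cKO 1, 2 and 3. Gm28661, the copy of mt-Co2 in the stretch above, had between 1 and 4 counts per library. Gm10925, Gm28437 and Gm29216 had between 0 and 3, Gm28439 had 1 count in 1 library and Gm10222 had 0. Outside this stretch, Gm13341 shares windows with mt-Co2 and had between 6 and 13 counts per library, and Gm13340 shares windows with mt-Co1 and had between 17 and 23. Gm28438 thus stood above these copies in every library, and its genotypes overlapped (log2 fold change 0.01, SE 0.19; edgeR adjusted p = 0.99).

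**Figure D1:**
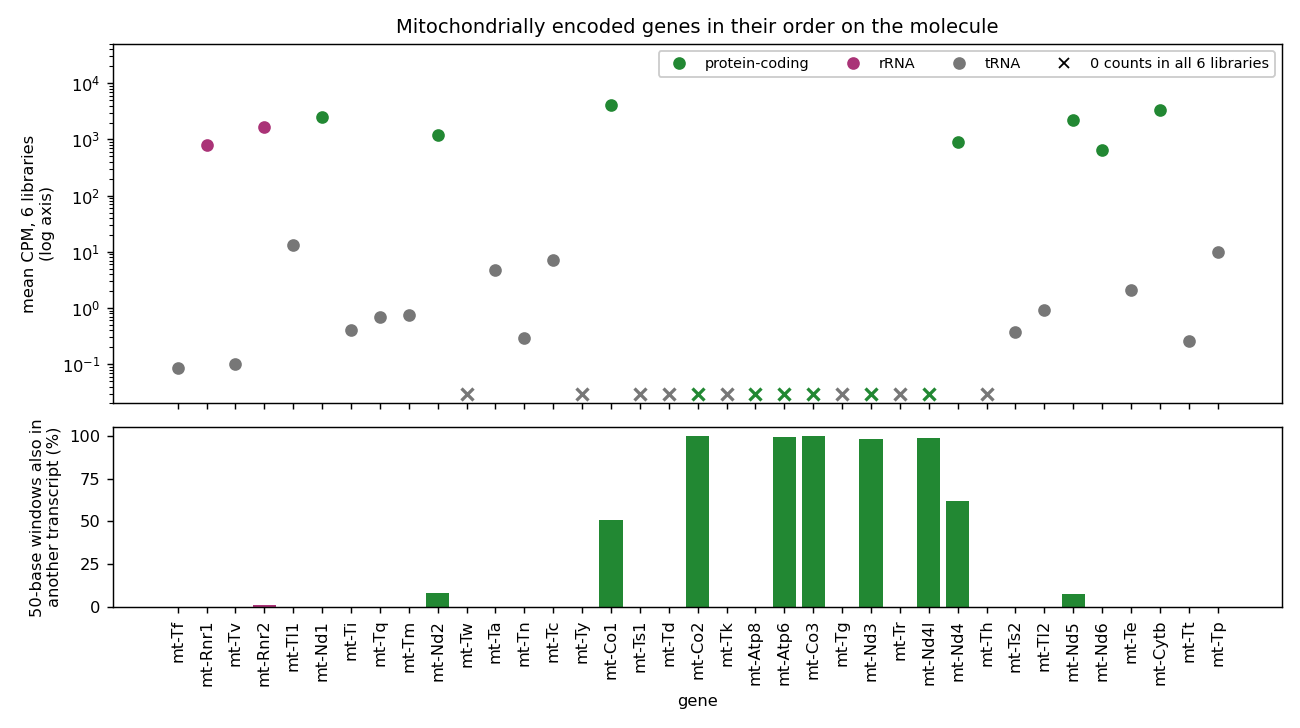
Upper panel: mean CPM over 6 libraries (log axis) of the 37 mitochondrially encoded genes in their order on the molecule, with crosses for genes at 0 counts in all libraries. Lower panel: percent of each gene's 50-base windows also found in another annotated transcript; the genes from mt-Ts1 to mt-Nd4l are at 0, and 5 of them are at 98.0% or above in the lower panel.

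Levels between genes were compared per kilobase of transcript. Among the 7 detected mRNAs and 2 rRNAs, mt-Cytb (cytochrome b) had the highest mean over the 6 libraries at 2918 ± 116 CPM per kilobase (SD, n = 6 libraries of both genotypes). It was followed by mt-Co1 (the subunit of complex IV that holds its catalytic centre) at 2618 ± 99.2 and mt-Nd1 at 2570 ± 100. mt-Cytb was above mt-Co1 in 6 of 6 libraries, whereas mt-Co1 was above mt-Nd1 in 5 of 6, with a mean difference of 48.4 ± 45.7 CPM per kilobase (SD, n = 6). mt-Nd6 at 1238 ± 82.7 and mt-Nd5 at 1236 ± 67.1 did not differ beyond their spread, with mt-Nd6 higher in 3 of 6 libraries. mt-Nd2 came next at 1137 ± 39.4 CPM per kilobase, below mt-Nd5 in 6 of 6 libraries. mt-Nd4 was lowest of the mRNAs at 653 ± 33.4.

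The order depends on the length used. The counts were also divided, unchanged, by a length without the shared stretches, which fits only if reads there went uncounted, a step that the sources do not state. Divided by the number of 50-base windows that no other annotated transcript holds, and expressed per kilobase of such window starts, mt-Co1 came first at 5534 CPM, ahead of mt-Cytb at 3049 and mt-Nd1 at 2709. On that scale mt-Nd4 moved from the last place to the fourth, at 1793, above mt-Nd5 at 1375, mt-Nd6 at 1367 and mt-Nd2 at 1299. The value of mt-Co1 ran from 4045 with windows of 100 bases to 6653 with windows of 36. mt-Nd6 is the only one of the 13 protein genes that lies on the opposite strand. The kit keeps no strand, so reads of the long transcript antisense to mt-Nd6 cannot be told apart from its own. The ratio of mt-Nd6 to mt-Nd5 counts was 0.277, 0.291 and 0.282 in wild type 1, 2 and 3, against 0.287, 0.281 and 0.292 in SnoN cKO 1, 2 and 3.

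The protein-coding mRNAs differed little between genotypes. mt-Co1 was at 4048, 4163 and 3761 CPM in wild type 1, 2 and 3, against 4005, 4159 and 4135 CPM in SnoN cKO 1, 2 and 3. The genotypes overlapped, and the log2 fold change was 0.04 (SE 0.04; edgeR adjusted p = 0.823). mt-Cytb was at 3394, 3483 and 3255 CPM in the wild type group against 3392, 3112 and 3393 CPM in SnoN cKO. SnoN cKO 2 was the lowest library, and the log2 fold change was -0.03 (SE 0.05; edgeR adjusted p = 0.852).

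Of the complex I subunits, mt-Nd1 was at 2397, 2492 and 2297 CPM in the wild type group against 2486, 2538 and 2546 CPM in SnoN cKO. Only wild type 2 overlapped the SnoN cKO libraries, and the log2 fold change was 0.08 (SE 0.04; edgeR adjusted p = 0.663, unadjusted p = 0.0971). mt-Nd5 was at 2291, 2351 and 2272 CPM in the wild type group against 2288, 2011 and 2314 CPM in SnoN cKO, a log2 fold change of -0.06 (SE 0.05; edgeR adjusted p = 0.761). mt-Nd4 was at 927, 938 and 894 CPM in the wild type group against 896, 814 and 931 CPM in SnoN cKO, a log2 fold change of -0.06 (SE 0.05; edgeR adjusted p = 0.767). Both genes were lowest in SnoN cKO 2, and the other two SnoN cKO libraries lay within the wild type range of mt-Nd4. mt-Nd2 was between 1119 and 1229 CPM in all libraries, with a log2 fold change of 0.01 (SE 0.05, edgeR adjusted p = 0.965). Without the TMM factors it was -0.01, where the median of all genes was -0.022. mt-Nd6 was at 635, 683 and 641 CPM in the wild type group against 656, 564 and 676 CPM in SnoN cKO, a log2 fold change of -0.05 (SE 0.07; edgeR adjusted p = 0.864). SnoN cKO 2 was again the lowest.

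Among the 7 detected mRNAs, the highest library was between 1.10 and 1.21 times the lowest. Their log2 fold changes ran from -0.06 for mt-Nd5 to 0.08 for mt-Nd1, with 3 above and 4 below 0 and a median of -0.03. Over all 15457 genes tested, 49% had a positive log2 fold change and the median was -0.00231. Of the 37 mitochondrially encoded genes, 17 passed the filter on low counts, namely 7 mRNAs, 2 rRNAs and 8 tRNAs, and 20 did not. None of the 17 passed the edgeR test at an adjusted p under 0.05 (0 genes), and neither did any other gene of the table (0%). At an unadjusted p under 0.05, edgeR gave 1 of the 17, mt-Rnr2, beside 7.68% of all genes tested (3.21% higher and 4.47% lower in SnoN cKO), and limma-voom and DESeq2 gave 0 of the mitochondrially encoded genes. The genotypes did not overlap in 0 of the 17, beside 13.7% of all genes tested.

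**Figure D2:**
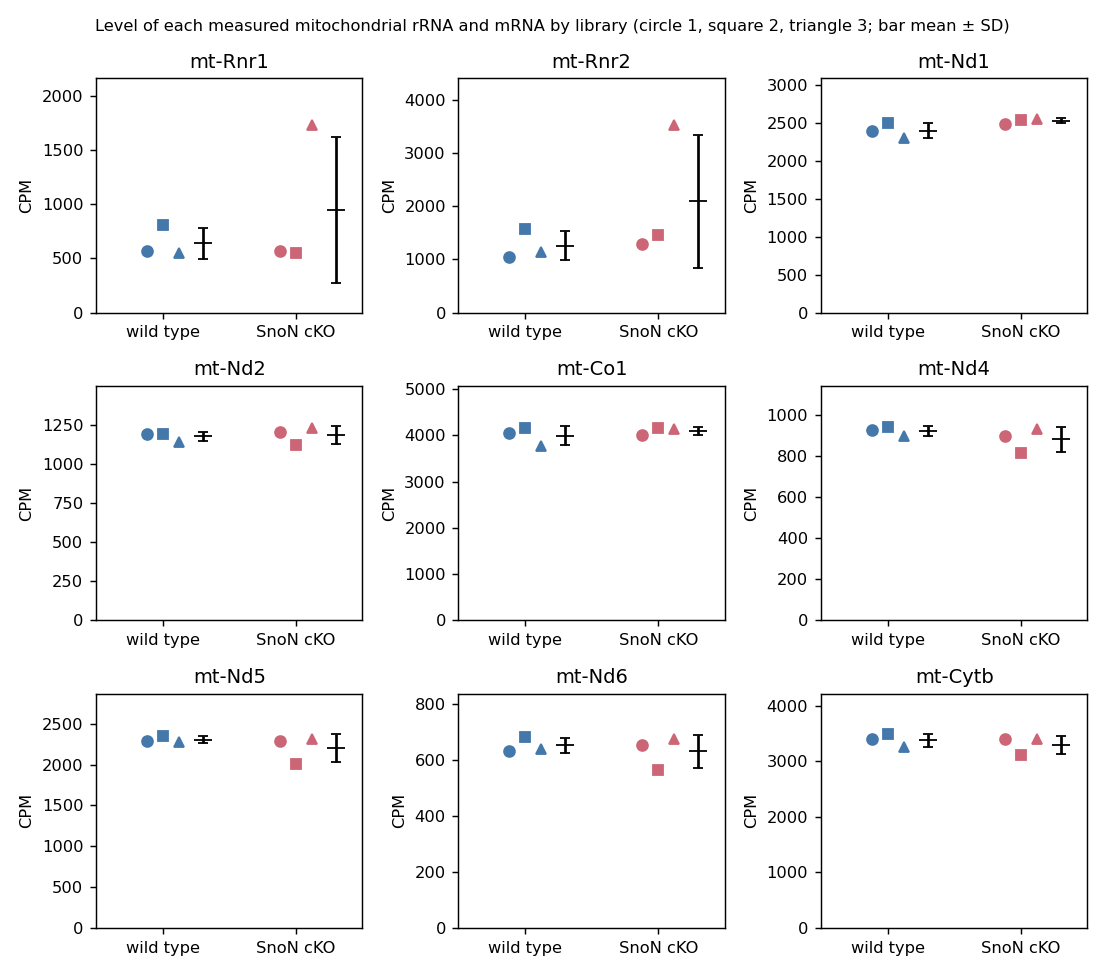
CPM (y axis, from 0) of the 2 rRNAs and 7 detected mRNAs in each library of both genotypes, with circles, squares and triangles for replicates 1, 2 and 3 and bars for mean ± SD of 3 libraries. SnoN cKO 3 lies apart for mt-Rnr1 and mt-Rnr2, and the mRNAs differ little between libraries.

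The rRNAs, which form the small (mt-Rnr1) and large (mt-Rnr2) subunits of the mitochondrial ribosome, varied far more than the mRNAs. mt-Rnr2 was at 1053, 1562 and 1142 CPM in wild type 1, 2 and 3, against 1281, 1452 and 3532 CPM in SnoN cKO 1, 2 and 3. mt-Rnr1 was at 569, 805 and 548 CPM in the wild type group against 570, 550 and 1729 CPM in SnoN cKO. SnoN cKO 3 was the highest library for both, wild type 2 was the second highest, and the genotypes overlapped. The log2 fold change was 0.74 for mt-Rnr2 (SE 0.33; edgeR adjusted p = 0.643, unadjusted p = 0.0473) and 0.57 for mt-Rnr1 (SE 0.38; edgeR adjusted p = 0.706).

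Without SnoN cKO 3, the log2 fold change was 0.13 for mt-Rnr2 and -0.19 for mt-Rnr1. Without both SnoN cKO 3 and wild type 2, it was 0.32 for mt-Rnr2 (edgeR adjusted p = 0.841, unadjusted p = 0.0191) and 0.01 for mt-Rnr1 (edgeR adjusted p = 0.991). The 2 remaining SnoN cKO libraries were then above the 2 wild type libraries in mt-Rnr2 and not in mt-Rnr1. The biological coefficient of variation is the spread between replicates beyond counting error. edgeR estimates it with each gene's value drawn towards those of other genes, so it is not the gene's own measured spread. This estimate was 33.2% for mt-Rnr1 and 29.7% for mt-Rnr2, above that of 99.2% and 99.0% of all genes tested. For the 7 mRNAs it was between 10.6% and 13.9%, whereas their measured spread could be smaller. mt-Nd1, at 13.0%, was at 2395 ± 97.8 CPM in the wild type group and 2523 ± 32.5 CPM in SnoN cKO (SD, n = 3 each). mt-Rnr2 over mt-Rnr1 was 1.85, 1.94 and 2.08 in the wild type group against 2.25, 2.64 and 2.04 in SnoN cKO. These ratios overlapped, with a difference of 0.352 (two-sided exact permutation p = 0.2; the smallest possible with 3 against 3 libraries is 0.1).

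Some RNAs that lack a poly(A) tail were high in the same libraries as the mitochondrial rRNAs. Rn7sk, the small nuclear RNA that holds the elongation factor P-TEFb, was at 0.313, 14.7 and 0.156 CPM in wild type 1, 2 and 3, against 1.02, 0.609 and 79.1 CPM in SnoN cKO 1, 2 and 3. Rpph1, the RNA of ribonuclease P, was at 19.5 CPM in wild type 2, at 56.7 CPM in SnoN cKO 3 and at most 0.609 CPM elsewhere. Rmrp, the RNA of ribonuclease MRP, followed the same order, at 6.51 and 35.4 CPM against at most 0.234 CPM, as did Scarna2, a small Cajal body RNA, with 17 and 71 counts against at most 3. Terc, the telomerase RNA, did not, with 1 and 5 counts against 4 to 8. Rn7s1, Rnu1b1, Rnu2-10, Rnu11 and Rnu12 of the same list were at 0 in every library, and Rn7s2 had at most 1 count. Other RNAs were chosen after their values were seen. Of these, n-R5-8s1, named for the 5.8S rRNA, was at 154 and 602 CPM in wild type 2 and SnoN cKO 3 against at most 3.86 CPM elsewhere, and Gm42418 was at 6921 and 39052 CPM against at most 656 CPM. The long nuclear RNA Malat1 did not follow, at 1082 and 1211 CPM in these libraries and between 976 and 1197 CPM in the others. The part that library make-up has in the rRNA values was not tested.

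**Figure D3:**
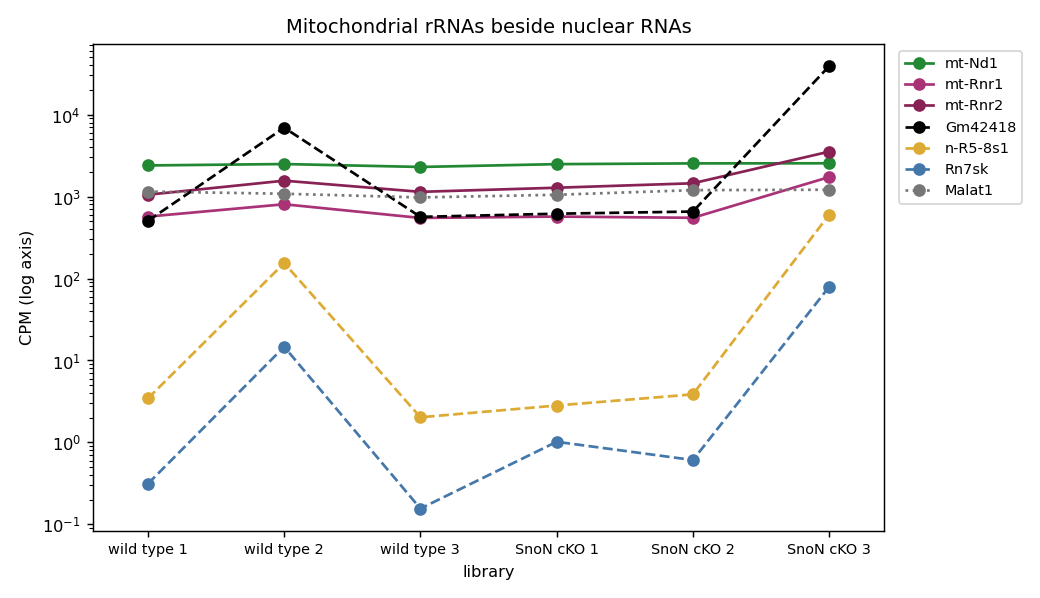
CPM (log axis) of mt-Rnr1, mt-Rnr2 and mt-Nd1 beside the nuclear RNAs Gm42418, n-R5-8s1, Rn7sk and Malat1 in the 6 libraries; lines join the values of 1 RNA. The rRNAs, Gm42418, n-R5-8s1 and Rn7sk are highest in SnoN cKO 3 and second in wild type 2, whereas mt-Nd1 stays between 2297 and 2546 CPM.

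Transfer RNAs carry amino acids to the mitochondrial ribosome, and their counts were low. The 14 detected tRNA genes had 3512 counts over all 6 libraries, of which 90.6% fell on mt-Tl1 (1135 counts), mt-Tp (851), mt-Tc (612), mt-Ta (406) and mt-Te (177). mt-Tl1, a leucine tRNA, lies between mt-Rnr2 and mt-Nd1, and mt-Tp, the proline tRNA, is the last gene of the order used here. These are shown because they had the most counts. They hold 75 and 67 bases in GENCODE M21 and no 50-base window shared with another transcript.
mt-Tl1: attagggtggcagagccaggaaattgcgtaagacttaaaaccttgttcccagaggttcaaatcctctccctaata
mt-Tp: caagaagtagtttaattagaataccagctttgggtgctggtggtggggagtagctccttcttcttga

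Of the 5 tRNA genes with the most counts, 4 (mt-Tp, mt-Tc, mt-Ta and mt-Te) lie on the strand of mt-Nd6, and this strand holds 8 of the 22 tRNA genes and had 60.6% of the tRNA counts. Without strand, these counts cannot be told apart from those of transcripts running the other way across them.

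mt-Tl1 was at 10.02, 12.4 and 12.9 CPM in wild type 1, 2 and 3, against 12.5, 12.9 and 17.9 CPM in SnoN cKO 1, 2 and 3. SnoN cKO 3, the library of highest rRNA, was again the highest, the other libraries overlapped, and the log2 fold change was 0.30 (SE 0.16; edgeR adjusted p = 0.654). mt-Tp was between 9.70 and 10.5 CPM in the wild type group against 7.58 to 11.4 CPM in SnoN cKO (log2 fold change -0.01, SE 0.15; edgeR adjusted p = 0.988). mt-Tc, the cysteine tRNA, had a log2 fold change of 0.04 (SE 0.13), mt-Ta, the alanine tRNA, one of 0.14 (SE 0.16) and mt-Te, the glutamate tRNA, one of -0.06 (SE 0.26), with edgeR adjusted p from 0.83 to 0.96. The genotypes overlapped in all 5.

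Summed over the 37 genes, mitochondrial reads made up 1.68%, 1.77% and 1.601% of counts in wild type 1, 2 and 3, against 1.70%, 1.65% and 1.97% in SnoN cKO 1, 2 and 3. The 95% Wilson interval of each share was narrow (1.97% to 1.98% in SnoN cKO 3) and covers counting error only. The genotypes overlapped, with means of 1.68% ± 0.0856 and 1.77% ± 0.175 (SD, n = 3 each; two-sided exact permutation p = 0.6). The sign of the difference, 0.0888 percentage points, turned to -0.011 without SnoN cKO 3.

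The mRNA part of this share was close in all libraries, at 1.51%, 1.53% and 1.43% in the wild type group against 1.51%, 1.44% and 1.46% in SnoN cKO (two-sided exact permutation p = 0.7). The rRNA part was 0.164%, 0.237% and 0.169% of counts in the wild type group against 0.187%, 0.202% and 0.505% in SnoN cKO (two-sided exact permutation p = 0.5). As a part of mitochondrial counts, rRNA was 9.81%, 13.4% and 10.6% in the wild type group against 11.01%, 12.2% and 25.6% in SnoN cKO (difference 5.04 percentage points; two-sided exact permutation p = 0.4). Without SnoN cKO 3 that difference was 0.378 percentage points. Without wild type 2 as well it was 1.44, with no overlap (two-sided exact permutation p = 0.333, the smallest that 2 against 2 libraries allow). tRNA counts were between 0.00373% and 0.00478% of counts in all libraries, highest in SnoN cKO 3. Wild type 2, at 0.00407%, was below SnoN cKO 1, at 0.00410%. In bulk tissue, a share of mitochondrial RNA cannot tell a change in cells that hold many mitochondria from a change in RNA per cell.

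By respiratory complex, the mitochondrial subunits of complex I held 0.749% ± 0.0208 of counts in the wild type group against 0.736% ± 0.0258 in SnoN cKO (SD, n = 3 each; two-sided exact permutation p = 0.6). Complex III, which is mt-Cytb, held 0.339% ± 0.0120 and 0.327% ± 0.0147 (two-sided exact permutation p = 0.2). Complex IV, which is mt-Co1 here, held 0.401% ± 0.0215 and 0.407% ± 0.0109 (two-sided exact permutation p = 0.8). Complex V had 0 counts in every library, so that its mitochondrial subunits were not measured.

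Within the mRNA counts, the parts taken by 4 genes lay slightly apart between genotypes. mt-Nd1 made up 16.1%, 16.3% and 16.1% of the mRNA counts in wild type 1, 2 and 3, against 16.7%, 17.7% and 16.7% in SnoN cKO 1, 2 and 3. mt-Cytb made up 22.8% in each wild type library and 22.7%, 21.7% and 22.3% in SnoN cKO. For mt-Nd1 each SnoN cKO library was above each wild type library, and for mt-Cytb each was below. mt-Nd5 made up 15.4%, 15.4% and 15.9% in the wild type group against 15.3%, 14.0% and 15.2% in SnoN cKO, and mt-Nd4 made up 6.23%, 6.13% and 6.27% against 6.00%, 5.69% and 6.12%. Both were lower in each SnoN cKO library. mt-Co1, mt-Nd2 and mt-Nd6 overlapped.

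In all, 4 of the 7 parts did not overlap between genotypes, each with a two-sided exact permutation p of 0.1, the smallest possible, and 0.175 after Benjamini-Hochberg adjustment over the 7. The parts sum to 100 in each library and are not independent. Of the 7, only the mt-Nd6 part was named in the plan. In CPM, a different measure, the genotypes did not overlap in 0 of these mRNAs, beside 13.7% of all genes tested. The mean difference was 0.87 percentage points for mt-Nd1, -0.546 for mt-Cytb, -0.705 for mt-Nd5 and -0.274 for mt-Nd4. SnoN cKO 2 lay farthest from the other libraries in each of the 4. Without it the differences were 0.523, -0.291, -0.298 and -0.149, and without wild type 2 and SnoN cKO 3 they were 1.09, -0.582, -0.977 and -0.403. mt-Nd6, the gene of the opposite strand, made up 4.27%, 4.46% and 4.497% of mRNA counts in wild type and 4.395%, 3.94% and 4.44% in SnoN cKO (difference -0.15 percentage points; two-sided exact permutation p = 0.5).

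SnoN cKO 2 also stood apart in markers of the choroid plexus, a secretory tissue beside the cerebellum. The 9 markers, all of which had counts, summed to 180.8 CPM in it, to between 2130 and 3834 CPM in the wild type libraries, and to 3958 and 3700 CPM in SnoN cKO 1 and 3. Ttr, which encodes transthyretin, was at 17.3 CPM against 1641 to 3209 CPM elsewhere. The part of choroid plexus RNA in the mitochondrial values was not tested.

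**Figure D4:**
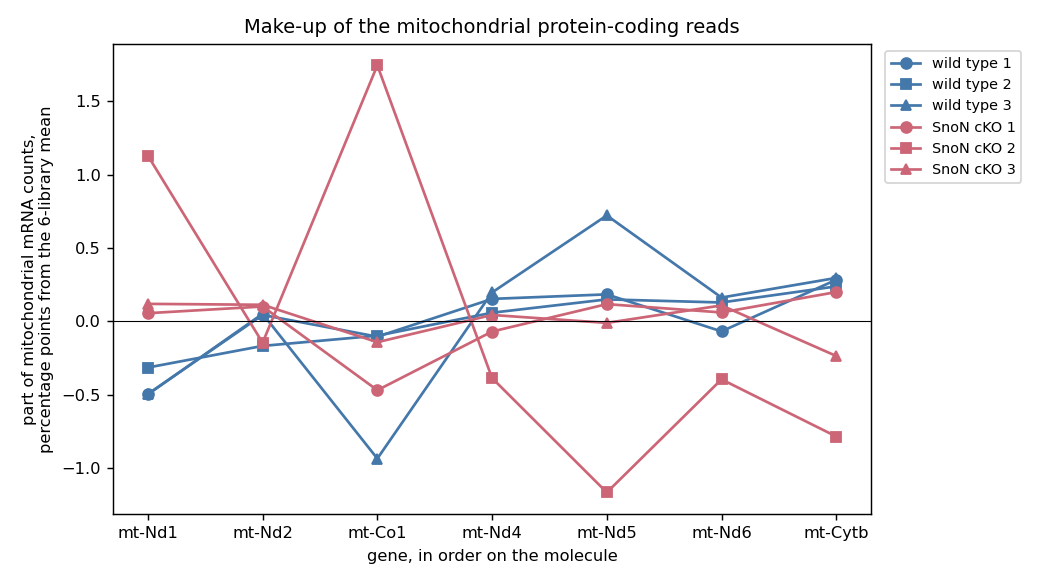
Part of the mitochondrial mRNA counts taken by each of the 7 detected genes, in percentage points from the 6-library mean (y axis), with 1 line per library. SnoN cKO 2 departs most, with mt-Nd1 and mt-Co1 above and mt-Nd5 and mt-Cytb below the mean.

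The nuclear genes that make, process and translate these RNAs were then described from lists. No member of any list passed the edgeR adjusted threshold (0 genes), and the lists were not tested as sets. Over all genes tested, 49% had a positive log2 fold change. Their median was -0.002, and -0.022 without the TMM factors. Of the 26 genes of mitochondrial DNA maintenance and transcription, 14 log2 fold changes were positive, and their median over the list was 0.05, which was 0.02 without SnoN cKO 2 and 0.03 without the TMM factors. Tfam was at 51.5 ± 2.47 CPM in the wild type group against 50.9 ± 2.48 CPM in SnoN cKO (SD, n = 3 each; log2 fold change -0.02, SE 0.06; edgeR adjusted p = 0.94). Polrmt, the mitochondrial RNA polymerase, was at 38.6 ± 1.59 and 41.3 ± 2.82 CPM (log2 fold change 0.10, SE 0.06; edgeR adjusted p = 0.695).

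The lowest p-values of that list belonged to Top1mt, the mitochondrial topoisomerase, and Primpol, a primase-polymerase. Top1mt was at 14.2, 14.6 and 12.6 CPM in the wild type group against 10.5, 11.6 and 11.3 CPM in SnoN cKO. Each SnoN cKO library was lower (log2 fold change -0.32, SE 0.10; edgeR adjusted p = 0.637, unadjusted p = 0.0111). Primpol was at 8.22, 7.97 and 6.70 CPM in the wild type group against 10.5, 9.27 and 9.27 CPM in SnoN cKO. Each SnoN cKO library was higher (log2 fold change 0.34, SE 0.12; edgeR adjusted p = 0.637, unadjusted p = 0.0196).

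For the 37 genes of mitochondrial RNA processing, stability and decay, 21 log2 fold changes were positive. The median was 0.01, and -0.007 without the TMM factors, where that of all genes was -0.022. Lrpprc, whose product stabilises mitochondrial mRNAs, was at 100.7 ± 4.54 CPM in the wild type group against 101.6 ± 2.54 CPM in SnoN cKO (SD, n = 3 each; log2 fold change 0.01, SE 0.05; edgeR adjusted p = 0.956). Mtpap, the poly(A) polymerase of mitochondrial mRNAs, was at 34.9 ± 1.09 and 37.3 ± 0.512 CPM (SD, n = 3 each; log2 fold change 0.09, SE 0.05; edgeR adjusted p = 0.659).

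Of the 22 mitochondrial aminoacyl-tRNA synthetases, 13 were positive with a median of 0.01. Without the TMM factors this median was -0.005, where that of all genes was -0.022. Lars2, the leucine enzyme, was at 60.01, 415 and 60.2 CPM in the wild type group against 66.6, 80.5 and 2276 CPM in SnoN cKO. These highs fell in wild type 2 and SnoN cKO 3, as for the rRNAs and Gm42418, and the genotypes overlapped (log2 fold change 2.18, SE 1.24; edgeR adjusted p = 0.676). Whether the counts on Lars2 came from its mRNA was not tested.

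Of the 77 mitochondrial ribosomal proteins, 75 were tested, and the log2 fold change was positive in 58 of these, beside 49% of all genes. The median was 0.06. The genotypes did not overlap in 14 that were higher in SnoN cKO, beside 6.95% of all genes, and in 1 that was lower, Mrps15, beside 6.73%. At an unadjusted edgeR p under 0.05, 1 of the 75 was higher and 1 was lower in SnoN cKO, beside 3.21% and 4.47% of all genes. Summed over the list, levels were 2121, 2129 and 2112 CPM in the wild type group against 2181, 2209 and 2199 CPM in SnoN cKO. The sum was thus higher in each SnoN cKO library on this scale. Without the TMM factors the sums overlapped, at 2154, 2133 and 2118 against 2206, 2226 and 2115 CPM. In that setting 53 of 75 were positive, beside 41.2% of all genes. The overlap came through SnoN cKO 3 only, whose TMM factor was 0.962, against 1.002 to 1.015 in the other libraries. That library had 665802 counts on Gm42418, and the part of such RNAs in its total was not tested. Markers of some other cells were also set beside these values. The 6 markers of Bergmann glia and astrocytes all had counts. Their sums did not overlap, at 3291 to 3369 CPM in the wild type group against 3518 to 3853 CPM in SnoN cKO. The log2 fold change was positive in 6 of 6. At an unadjusted edgeR p under 0.05, 4 were higher in SnoN cKO, beside 3.21% of all genes. The 12 markers of brainstem and midbrain also all had counts. Their sums overlapped, at 12.6 to 24.2 CPM in the wild type group against 6.77 to 13.4 CPM in SnoN cKO. Of the 8 tested, 7 were negative. At an unadjusted edgeR p under 0.05, 4 were lower in SnoN cKO, beside 4.47% of all genes. Levels were low, and libraries of a single genotype can meet the filter on low counts. Hoxa5 had a mean of 1.401 CPM in the wild type group against 0.1956 CPM in SnoN cKO, and Gata3 1.087 against 0.4625 CPM. For such markers the filter can itself favour the lower direction, so the tested markers cannot show how the list leaned. The markers that did not pass were not tested. Most other marker lists also leaned up or down, with sums that overlapped. Positive were 8 of 9 granule lineage, 5 of 6 Purkinje cell and 6 of 6 microglia markers. At an unadjusted edgeR p under 0.05, 2, 1 and 2 of these were higher, beside 3.21% of all genes. Negative were 6 of 6 meninges, 9 of 9 choroid plexus and 6 of 6 tested red blood cell markers. Of these, 2, 0 and 0 were lower at that p, beside 4.47%. The part of all these cells in the ribosomal protein values was not tested. Mrpl2 was at 30.1, 29.0 and 28.2 CPM in the wild type group against 31.6, 36.2 and 33.4 CPM in SnoN cKO (log2 fold change 0.21, SE 0.07; edgeR adjusted p = 0.637, unadjusted p = 0.00842).

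Nuclear subunits of the respiratory complexes had small positive medians. They were 0.04 for 36 subunits of complex I (31 positive), 0.03 for 9 of complex III (7 positive), 0.01 for 14 of complex IV (10 positive) and 0.02 for 17 of complex V (12 positive). Over all genes tested, 49% were positive. At an unadjusted edgeR p under 0.05, 0, 0, 0 and 1 subunits were higher in SnoN cKO, beside 3.21% of all genes. The genotypes did not overlap, with SnoN cKO higher, in 1, 0, 1 and 1 subunits, beside 6.95% of all genes. Without the TMM factors, 26, 5, 6 and 9 were positive, beside 41.2% of all genes. The median of all genes then moved to -0.022, and that of complex IV to -0.006. Without SnoN cKO 3 the complex III median was -0.003, with 4 of 9 positive. Atp5f1, a subunit of the stalk of ATP synthase, was at 132, 132 and 134 CPM in the wild type group against 142, 141 and 145 CPM in SnoN cKO. Each SnoN cKO library was higher (log2 fold change 0.10, SE 0.04; edgeR adjusted p = 0.637, unadjusted p = 0.0292).

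Of 15 regulators of mitochondrial biogenesis, 4 were positive, with a median of -0.04; without wild type 2, 9 were positive and the median was 0.007. Ppargc1a, a coactivator of mitochondrial genes, was at 50.7 ± 4.74 CPM in the wild type group against 48.0 ± 5.74 CPM in SnoN cKO (SD, n = 3 each; log2 fold change -0.08, SE 0.09; edgeR adjusted p = 0.831). Nrf1, a transcription factor of the same network, was at 58.7 ± 2.11 and 58.0 ± 4.75 CPM (log2 fold change -0.02, SE 0.06; edgeR adjusted p = 0.954). Prkaa2, a catalytic subunit of AMP-activated kinase, was at 48.9, 48.2 and 49.3 CPM in the wild type group against 47.1, 39.8 and 44.1 CPM in SnoN cKO. Each SnoN cKO library was lower (log2 fold change -0.16, SE 0.06; edgeR adjusted p = 0.637, unadjusted p = 0.0314).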

How the data were processed

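A single deposited table holds raw counts for each gene in 6 libraries. The tools named are featureCounts 1.4.5, Subread and STAR 2.0.4b, and the build is mm9, per the submitters' processing notes, which tie no tool to a step. Of 41228 rows, 660 repeated a symbol with the same values in all libraries and were dropped; of these, 140 had counts (0.465% of counts) and 520 were at 0. Identifiers in the table did not belong to the symbols beside them (97 of 40254 found in GENCODE M21 had the same symbol), so symbols were used. edgeR 4.0.16 in R 4.3.3 (filterByExpr at a minimum count of 10, TMM scaling, two-sided quasi-likelihood test, no covariates, Benjamini-Hochberg adjustment at 0.05) was fitted to all 15457 genes that passed. CPM are counts over TMM-scaled totals. Single values per library were compared by an exact permutation test over 20 splits (scipy 1.17.1). The fit was tested on simulated data. Lengths and sequences came from GENCODE M21 transcripts (GRCm38), where the plan had named RefSeq protein lengths and no comparison of levels otherwise; coordinates are not printed. No library repeated another (chi-square over degrees of freedom at least 2.67 for every pair). Members and lists (11 pathway, 10 marker) were chosen with earlier results of these data known. Named were all mRNA and rRNA genes, the 5 tRNA genes with most counts, Skil, list members by a rule of smallest p (up to 3 per list, examples given), and Tfam, Polrmt, Lrpprc, Ppargc1a and Nrf1. Alternatives were other scalings (DESeq2 size factors, library totals, nuclear totals), no filter, DESeq2 1.42.0, limma-voom (limma 3.58.1), sex and replicate block as terms, repeats kept, and each library left out.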

Additional observations from a re-analysis of the deposited data

How the results depend on the processing

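No mitochondrially encoded gene (0) passed the adjusted threshold in any of the 17 alternatives to the edgeR test. Without a filter on low counts, mt-Rnr2 came near it (edgeR adjusted p = 0.0543, unadjusted p = 8.71e-05). In that setting 3 of 23 mitochondrially encoded genes had an unadjusted edgeR p under 0.05. Over all genes the count of 0 became 39 without a filter on low counts, 4 with DESeq2 (Ank2, Eln, Map1b and Ncan) and 1 with the labelled sex as a covariate (Ide), genes named after their values were seen; the cause was not tested. DESeq2 gave no adjusted p for some genes, among them Skil, mt-Tl1, mt-Tp, mt-Tc, mt-Ta and mt-Te, which could not pass there. Leaving out each library in turn gave 0 genes throughout. At an unadjusted p under 0.05, edgeR gave 1187 genes over the table, of which 1 was mitochondrially encoded; leaving out 1 library moved the latter between 0 and 3. With each library left out, the difference in mitochondrial share ran from -0.011 (without SnoN cKO 3) to 0.152 percentage points, that in the rRNA part of mitochondrial counts from 0.378 to 7.68, and that in the mt-Nd6 part of mRNA counts from -0.241 to 0.0104 (without SnoN cKO 2). The log2 fold change then ran from -0.187 to 0.843 for mt-Rnr1, 0.134 to 0.993 for mt-Rnr2, -0.01 to 0.049 for mt-Nd2, -0.002 to 0.075 for mt-Co1, -0.091 to 0.029 for mt-Nd6, -0.06 to 0.006 for mt-Cytb, -0.124 to 0.149 for mt-Tp, -0.015 to 0.139 for mt-Tc and -0.326 to 0.138 for mt-Te, so the sign turned in each of these but mt-Rnr2. It kept its sign for mt-Nd1 (0.046 to 0.109), mt-Nd4 (-0.098 to -0.01) and mt-Nd5 (-0.093 to -0.002). For mt-Nd2 it was also -0.01 without the TMM factors, where the median of all genes was -0.022. Without wild type 2 and SnoN cKO 3, a choice made after seeing the data, the log2 fold change of mt-Nd2 was -0.004. With SnoN cKO 2, SnoN cKO 3, wild type 2, or wild type 2 with SnoN cKO 3 left out, the median log2 fold change of the nuclear lists ran from 0.020 to 0.049 (DNA maintenance and transcription), 0.001 to 0.021 (RNA processing), -0.006 to 0.029 (synthetases), 0.049 to 0.072 (ribosomal proteins), 0.027 to 0.053, -0.003 to 0.039, 0.025 to 0.038 and 0.018 to 0.048 (complexes I, III, IV and V) and -0.044 to 0.013 (biogenesis regulators), choices made after seeing the data. Replicate numbers in the titles did not pair the libraries: same-numbered deviations correlated at -0.0404, -0.324 and -0.183, and with the replicate block 0 genes passed and 786 had an unadjusted p under 0.05. Genes with few counts, such as most tRNAs, and genes at 0 limit what could be seen; with 3 libraries a genotype, no permutation p can fall below 0.1.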
